A study of Homo sapiens with 15 samples.

Results

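The C/D box small nucleolar RNAs (snoRNAs) were read here as the genes whose symbol starts with SNORD and that have 1 probeset of their own, among 18417 named genes on the array. They were 6, 40 and 68 genes in 3 classes, and SNORD13. A further 64 SNORD symbols were not used here because they share a probeset with another symbol, among them SNORD3A, SNORD47, SNORD76 and SNORD80. The 6 lie in the imprinted chromosome 14 cluster (2 SNORD113 and 4 SNORD114 copies) and the 40 in the imprinted chromosome 15 cluster (20 SNORD115 and 20 SNORD116 copies). The 68 are called host-gene snoRNAs here, and most are encoded in introns of single host genes, while SNORD13 has a promoter of its own. SNORD13P1, SNORD13P2 and SNORD13P3, copies of SNORD13, are counted among the 68.

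The samples were 5 groups of 3, each hybridised to an Affymetrix array of whole transcripts (15 arrays). HUVEC are endothelial cells of the human umbilical vein. They were left untreated, or kept for 6 h with exosomes from Jurkat (JK), a T cell leukaemia line that carries CD47, or from JinB8 (JINB8), a mutant Jurkat line that lacks the CD47 receptor. The last 2 groups were RNA of the JK and JINB8 exosomes themselves, so the parent T cells were not measured here. Exosomes are small membrane vesicles shed by cells, and both lines had grown in medium with human AB serum. The labels do not say whether replicates came from separate cultures, so a p-value speaks only of the spread among these arrays, which could be technical.

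C/D box snoRNAs guide methylation of the ribose in ribosomal and spliceosomal RNA, in a particle with fibrillarin (FBL), which carries the methyltransferase activity, and NOP58. Most are cut out of the introns of genes for ribosomal proteins, translation factors or non-coding hosts such as GAS5 and SNHG5, and are then kept in the nucleolus while the spliced host RNA leaves the nucleus. SNORD115 and SNORD116 come in tandem copies from the long paternal transcript SNHG14. SNORD115 is known for its expression in neurons, and loss of SNORD116 is tied to Prader-Willi syndrome. SNORD113 and SNORD114 come from the maternal non-coding transcript that includes MEG8.

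Many snoRNA hosts begin transcription at a C followed by further pyrimidines, the start known from ribosomal protein genes. RefSeq start sequences (GRCh38.p14) were found for 35 of the 43 genes that span members. In 14 of the 35 (40%) the start base was C and each of the next 3 bases was C or T on the transcribed strand, against 6.8% of 27305 genes with a start sequence. Some hosts are printed below to show this for genes whose snoRNAs are described later. Each window has 15 bases before the start and 15 from it, and capitals mark the pyrimidine run from the start base. SNHG14, the host of the chromosome 15 copies, and HSPA8 had no such run.
RACK1 (host of SNORD95, chr5:181243892-181243921, minus strand): ggggggcttttctctCTCTCTTTCactgca
RPL3 (host of SNORD43 and SNORD83B, chr22:39319609-39319638, minus strand): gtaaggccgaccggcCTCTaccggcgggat
RABGGTB (host of SNORD45A, chr1:75786241-75786270, plus strand): ctgaccctgctctctCCTTTCCCTgttaga
SNHG5 (host of SNORD50A and SNORD50B, chr6:85678719-85678748, minus strand): gctgcgcacttcggtCTTTTacgtcggcct
HSPA8 (host of SNORD14C and SNORD14E, chr11:123062122-123062151, minus strand): cgggcggaaaccggtctcattgaactcgcc
SNHG14 (host of SNORD115 and SNORD116, chr15:24823593-24823622, plus strand): cagttgtcctcctgcgccgacctcgaatgc

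The groups were not on one scale. Array medians of the deposited log2 values were 6.91 to 7.03 in untreated HUVEC and 5.08 to 5.18 in the other groups. The interquartile range was 1.91 to 1.99 in exosome RNA against 3.32 to 3.43 in treated HUVEC, so the sets may have been normalized separately. No detection calls were at hand, and the number of arrays limits the precision. All 10 endothelial markers were in the upper part of the ranking in HUVEC (median percent rank 3.74 to 4.2, where 0 is the brightest gene of an array) and their median was 55.2 and 56.5 in exosome RNA. The median of 10 T cell markers was 81.5 to 84.4 in HUVEC and 28.2 (JK) and 25.2 (JINB8) in exosome RNA. The CD47 signal was 4.71 ± 0.02 in JK and 4.73 ± 0.19 (SD, n = 3) in JINB8 exosome RNA, so it did not separate the lines, and where the mutation lies relative to the probeset is not known here.

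Where a snoRNA stood among the genes of its own array depended on the class. In untreated HUVEC the members had a median percent rank of 72.8, and 30 lay in the dimmest 5% on all 3 arrays. In JK and JINB8 exosome RNA the median was 96.1 and 96.8, with 57 and 59 members in the dimmest 5% on every array and 6 and 5 in the brightest 5%. The 68 host-gene snoRNAs moved from a median of 47.3 in JK-treated HUVEC to 88.1 in JK exosome RNA. For the 61 H/ACA box snoRNAs (SNORA), the other large snoRNA class, the same medians were 49.7 and 59.3.

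**Figure D1:**
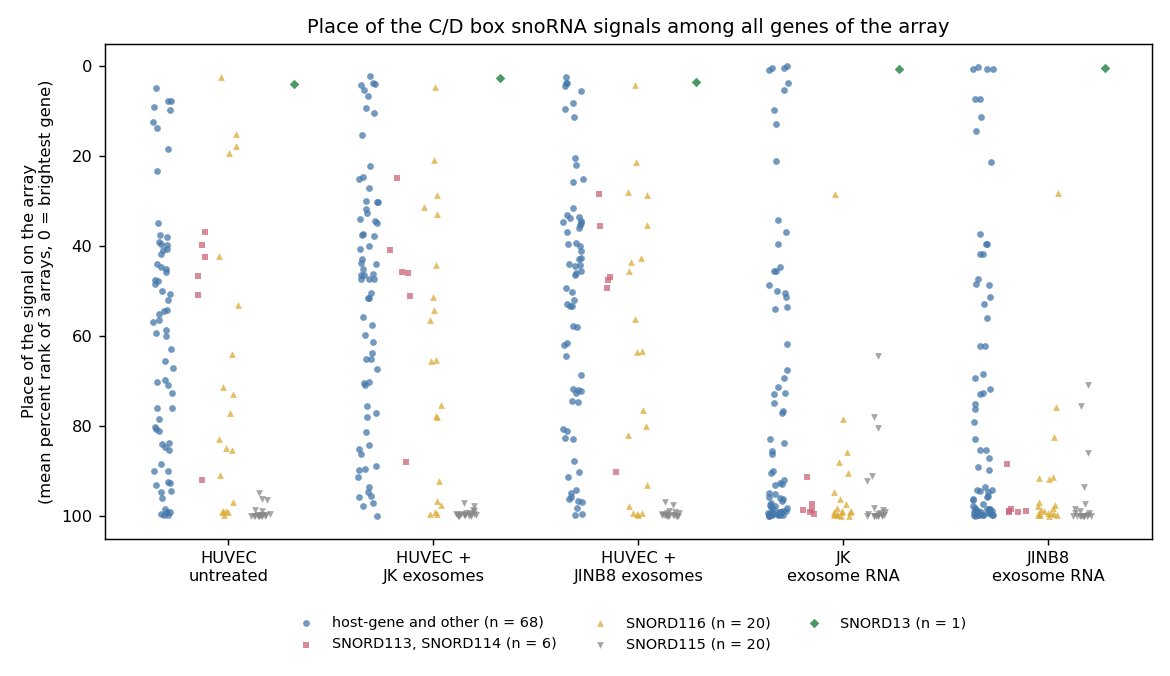
Mean percent rank of each C/D box snoRNA on the 3 arrays of each group, 0 being the brightest of 18417 genes, with colours and marker shapes for the classes. SNORD115 copies lie at the bottom in HUVEC, SNORD113, SNORD114 and SNORD116 copies spread through the range in HUVEC and lie mostly near the bottom in exosome RNA, and a few host-gene snoRNAs and SNORD13 lie at the top in exosome RNA.

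A few snoRNAs had among the brightest signals of the exosome arrays. SNORD95, a guide from an intron of RACK1, ranked 14 to 19 among 18417 genes in JK exosome RNA and 17 to 28 in JINB8 exosome RNA. In untreated HUVEC the same probeset ranked 2181 to 3069, so the rank ranges did not overlap. Its deposited signals were 9.50, 9.71 and 9.75 in untreated HUVEC, 8.89, 9.38 and 8.80 with JK exosomes, and 8.78, 8.73 and 8.80 with JINB8 exosomes. They were 9.32, 9.42 and 9.04 in JK and 9.33, 9.08 and 9.25 in JINB8 exosome RNA. SNORD46 ranked 65 to 95 and 97 to 117 in JK and JINB8 exosome RNA and 3179 to 4900 in untreated HUVEC. SNORD43, from RPL3, ranked 95 to 98 and 72 to 128 in exosome RNA and 6240 to 8174 in untreated HUVEC.

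SNORD13, the U13 RNA that takes part in processing and acetylation of the small subunit rRNA, was high in every group. It ranked 415 to 1055 in untreated HUVEC, 190 to 720 with JK exosomes, 633 to 706 with JINB8 exosomes. In exosome RNA its mean percent rank was 0.54 for JK and 0.54 for JINB8, and its deposited signals were 7.93, 7.84 and 8.02 in JK and 7.98, 8.13 and 8.06 in JINB8 exosome RNA. SNORD13P3, a near-identical pseudogene copy whose signal cannot be told apart from that of SNORD13, ranked 128 to 195 and 99 to 157 in exosome RNA. SNORD57, a small subunit rRNA guide from NOP56, ranked 987 to 2058 in untreated HUVEC, 332 to 455 with JK exosomes, and 570 to 867 in JK exosome RNA. SNORD74, from GAS5, ranked 1259 to 2558 in untreated HUVEC and 1594 to 1978 in JK exosome RNA.

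The chromosome 15 copies were split by family. In HUVEC the SNORD115 copies stood at the bottom of the arrays, with a median percent rank of 99.8 untreated and 99.6 with JK exosomes. The 4 members with the lowest mean rank over the 15 arrays were SNORD115-4, SNORD115-14, SNORD115-37 and SNORD115-28. SNORD116 copies had a median percent rank of 80.0 in untreated HUVEC, and SNORD116-15 ranked 315 to 576 there. SNORD116-15 ranked 612 to 1174 with JK exosomes and 3522 to 7216 in JK exosome RNA. Copies within each family are close in sequence, so the value of a single copy is uncertain.

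In HUVEC kept with JK exosomes, most host-gene snoRNAs stood higher against the rest of the array than in untreated HUVEC. Because the untreated arrays lie on a higher level, these comparisons used values quantile-normalized over the 9 HUVEC arrays, and a change is relative to the whole array. With the limma test (adjusted p under 0.05, Benjamini-Hochberg over 18417 genes) 55 members were higher, 7 were lower and 53 did not pass. Over all genes 48.6% were called, 26.2% higher and 22.4% lower. The median log2 fold change was 0.33 over the members and 0.02 over all genes. On the values as deposited 0 members were higher and 111 lower, beside 30 and 18289 of all genes, with an all-gene median of -1.68. After median centring 81 were higher and 5 lower, beside 6462 and 3587 of all genes. Of the 3 untreated arrays the second had the lowest value for 66 members (57.4%), beside 30.1% of all genes, so values without it are given where they move a result. The untreated level and the treatment cannot be told apart.

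The direction differed between the classes. Of the 68 host-gene snoRNAs 45 were higher and 2 lower, with a median of 0.61. SNORD116 copies went both ways, with 7 of 20 higher and 3 lower, and 10 and 2 after median centring. SNORD115 had 2 higher and 2 lower of 20 after quantile normalization but 18 higher and 0 lower after median centring. Of these 20 copies 18 lay in the dimmest 5% on every untreated array and all 20 on every JK-treated array. In the chromosome 14 cluster 1 of 6 was higher, and 2 after median centring. It was SNORD114-3, with 7.39, 5.89 and 7.26 untreated and 8.15, 7.88 and 7.34 with JK exosomes, so the groups overlapped. Its log2 fold change was 0.94 ± 0.34 (SE, limma adjusted p = 0.037), and 0.47 (adjusted p = 0.10) without the second untreated array. The call was also lost without JK replicate 1 or 2. SNORD13 was at 0.42 ± 0.26 and did not pass (limma adjusted p = 0.20).

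The 2 snoRNAs of SNHG5 were among the 6 with the largest rise. SNORD50B, a large subunit rRNA guide, had quantile-normalized log2 signals of 5.08, 4.49 and 4.64 in untreated HUVEC and 6.41, 6.06 and 6.10 with JK exosomes. The groups did not overlap, and the log2 fold change was 1.45 ± 0.17 (SE, limma adjusted p = 4.04e-05). SNORD50A rose by 1.34 ± 0.22 (limma adjusted p = 0.000499). SNORD94, which guides methylation of the U6 spliceosomal RNA and lies in PTCD3, had 5.54, 5.61 and 5.31 untreated and 6.86, 7.01 and 6.91 with JK exosomes, higher on each treated array. Its log2 fold change was 1.44 ± 0.10 (limma adjusted p = 7.19e-07).

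SNORD41, from TNPO2, varied more among untreated arrays, with 8.61, 7.28 and 9.13 against 9.98, 9.49 and 9.74 with JK exosomes. The groups did not overlap, and its log2 fold change was 1.40 ± 0.35 (limma adjusted p = 0.00624), or 0.87 (adjusted p = 0.0028) without the second untreated array. SNORD82, from the nucleolin gene NCL, rose by 1.33 ± 0.21 and SNORD4A, from RPL23A, by 1.26 ± 0.14. All 6 of these snoRNAs turned to a negative value on the data as deposited (-0.52 to -0.12). By host, 6 of the 7 GAS5 snoRNAs were higher and 0 lower, among them SNORD44 at 0.85 ± 0.18 (limma adjusted p = 0.0022). All 3 snoRNAs of RABGGTB were higher (0.74 to 0.77), as were all 3 of RPL23A (0.65 to 1.26), while for RPL13A 1 of 4 was. Without the second untreated array SNORD45A, of RABGGTB, was at 0.43 (limma adjusted p = 0.098).

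Members that fell were mostly from chromosome 15. SNORD116-24 had 8.29, 7.75 and 8.51 in untreated HUVEC and 7.38, 7.54 and 7.09 with JK exosomes, lower on each treated array. It fell by 0.85 on the log2 scale (SE 0.19, limma adjusted p = 0.0029). SNORD116-20 fell by 0.78 and SNORD116-15 by 0.62, whereas SNORD116-23 rose by 1.14 ± 0.14. SNORD53, from WDR43, fell by 0.44, SNORD14C, from HSPA8, by 0.31, and SNORD115-44 by 0.41. After median centring 3 of these no longer passed, SNORD116-15 at -0.19 (limma adjusted p = 0.41), SNORD14C at -0.0024 (adjusted p = 0.99) and SNORD115-44 at 0.01. SNORD115-44 also lay in the dimmest 5% on 3 of 3 JK-treated and 2 of 3 untreated arrays. The SNORD116-15 call was also lost without JK replicate 2 or untreated replicate 3, and that of SNORD14C without JK replicate 3 or untreated replicate 1 or 3.

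With JINB8 exosomes 43 members were higher, 7 lower and 65 did not pass, beside 49.3% of all genes called (26% higher and 23.3% lower). This comparison shares the untreated arrays with the one above. The median was 0.19 over the members and 0.02 over all genes. As deposited 0 were higher and 112 lower, beside 34 and 18252 of all genes, and after median centring 82 were higher and 3 lower, beside 7025 and 3450. Host-gene snoRNAs accounted for 37 of the 43 with 1 lower of 68, SNORD116 had 6 higher and 4 lower, SNORD115 had 0 higher and 2 lower, and of the chromosome 14 cluster 0 of 6 were called. After median centring SNORD115 had 18 of 20 higher, SNORD116 had 13 higher and 2 lower, and 2 of 6 in the chromosome 14 cluster were higher (SNORD114-3 and SNORD114-6).

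SNORD41 had 10.15, 10.02 and 9.95 with JINB8 exosomes, all above the untreated arrays, with a log2 fold change of 1.70 ± 0.35 (SE, limma adjusted p = 0.00185), or 1.18 without the second untreated array. SNORD116-23 was at 6.50, 6.57 and 6.37 against 5.26, 4.68 and 5.07 untreated, a log2 fold change of 1.47 ± 0.14. SNORD94 rose by 1.31 ± 0.10, SNORD42A by 1.30 ± 0.23, SNORD50B by 1.29 ± 0.17 and SNORD82 by 1.26 ± 0.21. SNORD116-24 was at 7.13, 7.26 and 6.86, below all untreated arrays, and fell by 1.10 (SE 0.19, limma adjusted p = 0.000507). SNORD116-20 fell by 0.78, SNORD116-15 by 0.55, SNORD115-44 by 0.48, SNORD53 by 0.35 and SNORD115-31 by 0.30. SNORD115-31 lay in the dimmest 5% on all 3 arrays of both groups, and SNORD115-44 on 3 of 3 JINB8-treated and 2 of 3 untreated arrays. Their signals were not shown to be above background. For SNORD115-44 and SNORD115-31 the sign turned after median centring, to 0.05 and 0.51, while SNORD116-15 at -0.039 (limma adjusted p = 0.87) and SNORD53 at -0.25 (adjusted p = 0.061) no longer passed. These last calls were also lost when single arrays were left out: SNORD116-15 without JINB8 replicate 1 or 3 or untreated replicate 3, and SNORD53 without JINB8 replicate 3 or untreated replicate 2 or 3.

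**Figure D2:**
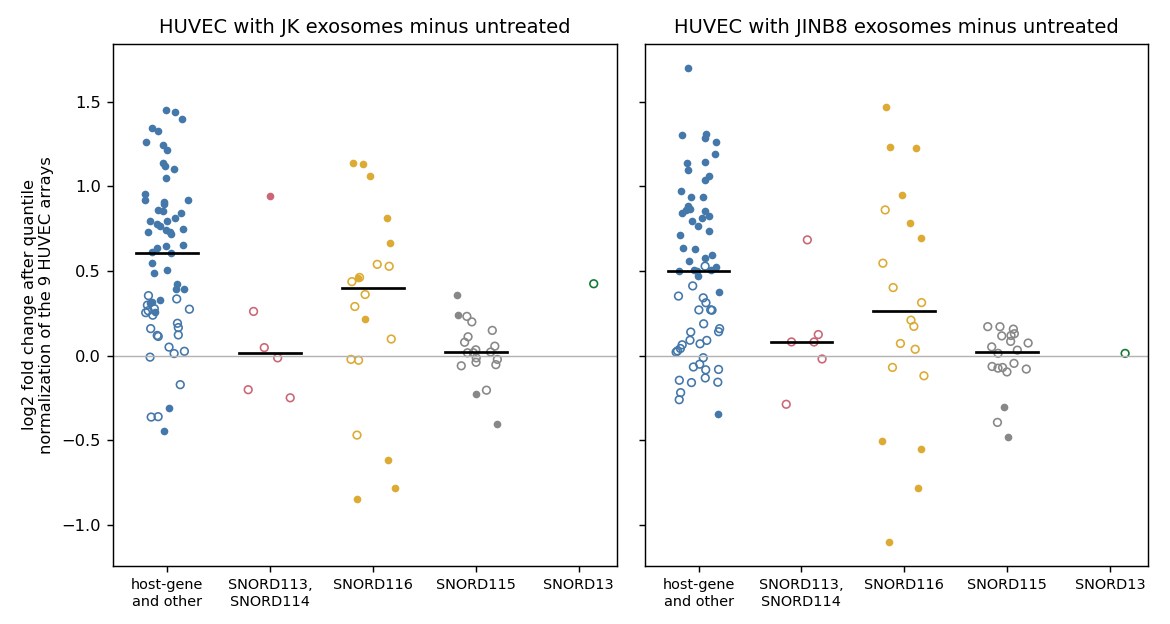
Log2 fold change of each C/D box snoRNA in HUVEC with JK exosomes (left) and with JINB8 exosomes (right) against untreated HUVEC, on quantile-normalized values, by class. Filled points passed the limma test (adjusted p under 0.05), open points did not, and black lines are class medians, which lie at 0.61 and 0.50 for the 68 host-gene snoRNAs.

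The snoRNA and the gene that spans it could be set side by side for 35 snoRNAs in 25 host genes, with strand not considered. With JK exosomes 18 pairs had both called, 13 in the same direction and 5 in opposite directions. The opposite pairs were SNORD4A, SNORD4B and SNORD42A with RPL23A, SNORD41 with TNPO2, and SNORD13P2, a copy of SNORD13, with FOXK1. For example SNORD4A rose by 1.26 while RPL23A fell by 0.28. With JINB8 exosomes 11 pairs had both called, 7 in the same and 4 in opposite directions. Of host-gene snoRNAs whose host begins with the pyrimidine run described above, 15 of 24 were higher with JK exosomes and 0 lower, against 19 and 2 of 30 with another host start.

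Of the particle proteins, FBL rose by 0.45 ± 0.12 with JK exosomes (limma adjusted p = 0.0105) and was at 0.24 ± 0.12 with JINB8 exosomes (adjusted p = 0.13). Without the second untreated array FBL was at 0.29 (adjusted p = 0.019) and 0.074 (adjusted p = 0.51). After median centring it was at 0.76 and 0.61, both past the threshold, and as deposited it turned to -1.03 and -1.22. NOP58 was at -0.16 ± 0.09 (adjusted p = 0.17) and fell by 0.27 (adjusted p = 0.030) in the same comparisons. The NOP58 call with JINB8 exosomes was lost when any of 5 of the 6 arrays was left out, and after median centring NOP58 was at 0.11 and 0.07, neither passing. Of 14 assembly and processing factors, 4 were higher and 5 lower with JK exosomes, and 3 and 4 with JINB8 exosomes. SNORA genes had 27 higher and 2 lower of 61 with JK exosomes, and small Cajal body RNAs 8 and 2 of 16. T cell markers had 1 of 10 higher and 3 lower with JK exosomes, and 0 and 3 with JINB8 exosomes.

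HUVEC kept with JINB8 exosomes and HUVEC kept with JK exosomes did not differ in any member by the limma test. None passed, beside 0% of all genes. Some genes split the treated arrays across the 2 treatments. For example the quantile-normalized KDR signals were 10.36, 10.38 and 9.29 with JK and 9.32, 9.51 and 10.28 with JINB8 exosomes. For VWF they were 10.99, 10.97 and 10.24, and 10.16, 10.22 and 10.83. The part of such a split in the lack of calls was not tested. At an unadjusted p under 0.05 there were 13 members, beside 9.11% of all genes, and 20 members had groups that did not overlap, beside 17.5% of all genes. The smallest adjusted p of a member was 0.332, for SNORD13P2 at -0.56 ± 0.17. The other named values that did not pass were SNORD104 at -0.52 ± 0.19, SNORD46 at -0.42 ± 0.14, SNORD114-26 at 0.30 ± 0.11 and SNORD116-23 at 0.30 ± 0.13.

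RNA of JINB8 exosomes and RNA of JK exosomes did not differ in any member either. Of all genes 0.679% were called, 0.668% higher and 0.0109% lower. Among the members 8 had an unadjusted p under 0.05, beside 8.06% of all genes, and 10 had groups that did not overlap, beside 12.9%. The smallest adjusted p was 0.130, for SNORD13P1 at -0.57 ± 0.14. Its signals were 3.45, 3.93 and 3.31 in JK and 2.99, 3.18 and 2.81 in JINB8 exosome RNA, all near the bottom of the arrays. SNORD115-48 was at -0.55 ± 0.14 (adjusted p = 0.134), SNORD57 at -0.27 ± 0.10 and SNORD13P3 at 0.24 ± 0.10.

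In the same comparison 7 of the 25 host genes passed, all higher in JINB8 exosome RNA. HSPA8, a constitutive chaperone, was higher by 1.19 ± 0.10 (SE) on the log2 scale, while its intronic SNORD14C and SNORD14E were at 0.04 ± 0.09 and 0.04 ± 0.10. RPL3, a ribosomal protein gene, was higher by 0.82 ± 0.13, while SNORD43 was at 0.14 ± 0.11 and SNORD83B at -0.04 ± 0.08. EEF2, a translation elongation factor, was higher by 0.90 ± 0.10 and its SNORD37 was at 0.12 ± 0.07. SNORD37 lay in the dimmest 5% on 3 of 3 arrays of each exosome group, and SNORD14E on 3 JK and 2 JINB8 exosome arrays. Signals of these 2 snoRNAs were not shown to be above background, so a change in them could be missed. SNORD14C, SNORD43 and SNORD83B lay in the dimmest 5% on 0 exosome arrays. ATP5F1B, RPS20, RPS3 and RPL5 were the other hosts. The differences between hosts and snoRNAs were not tested directly.

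**Figure D3:**
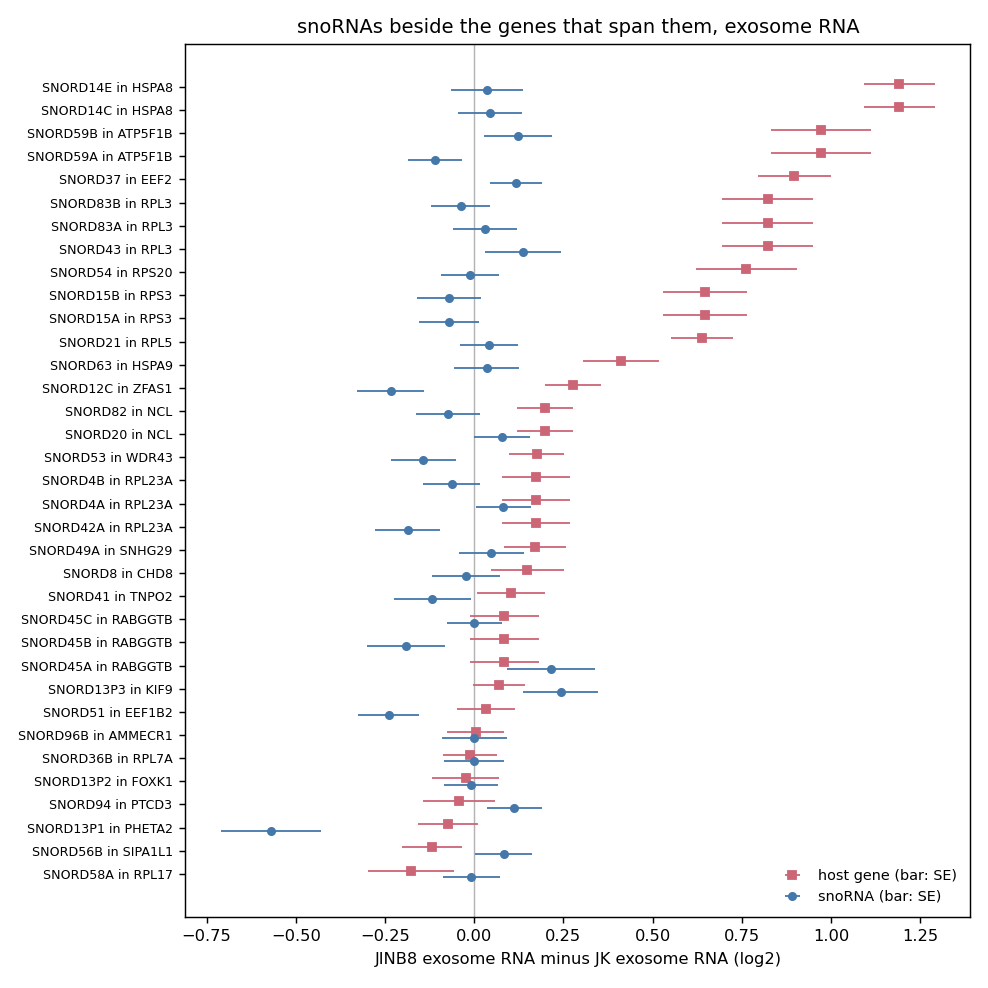
Log2 difference between JINB8 and JK exosome RNA (3 arrays each) for 35 C/D box snoRNAs (circles) and the genes that span them (squares), with limma standard errors as bars, sorted by host. The top hosts, led by HSPA8 at 1.19, lie to the right while their snoRNAs lie near 0. Some of these snoRNAs, such as SNORD37, had signals among the dimmest 5% of the exosome arrays.

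Against HUVEC kept with the same exosomes, exosome RNA had lower signals for most of the members. As deposited, JK exosome RNA had 18 members higher, 77 lower and 20 not passing against JK-treated HUVEC, beside 92.8% of all genes called (43.6% higher and 49.2% lower). The median was -0.85 over the members and -0.15 over all genes. JINB8 exosome RNA had 18 higher and 75 lower, beside 92.5% of all genes (44.2% higher and 48.3% lower), with medians of -0.83 and -0.11. T cell or endothelial origin and vesicle or cell cannot be told apart here. All 10 T cell markers were higher and all 10 endothelial markers lower in both comparisons, and 2 erythroid markers were higher. Their part in the result was not tested. The same amount of RNA (300 ng) was labelled for each sample, so a signal gives no amount per cell or per vesicle.

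The scale mattered for single snoRNAs. The all-gene median for JK was -0.15 as deposited, 0.22 after quantile normalization and 0.29 after median centring. Median centring gave 38 higher and 65 lower members for JK, beside 9392 and 7974 of all genes, and 38 and 61 for JINB8, beside 9377 and 7989. Quantile normalization gave 17 and 80 for JK, beside 9163 and 7386, and 15 and 72 for JINB8, beside 9209 and 7277. Under all 3 scalings 61 members were called lower and 10 higher for JK, and 57 and 10 for JINB8. For JK 12 members, and for JINB8 5, were called in opposite directions by different scalings, and SNORD13 and SNORD13P3 were in both sets. SNORD13 was lower by deposited value (-2.12 ± 0.19) and higher after quantile normalization (0.98), which goes with its rise in rank.

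The 2 comparisons share no arrays, but their spread was pooled over the same 12 arrays, so their calls are not fully independent. The members higher in both numbered 14, which is 77.8% of each list, and the members lower in both numbered 75, which is 97.4% of the JK and 100% of the JINB8 list. For all genes the shares were 97.4% and 96% of the higher lists, and 96.9% and 98.6% of the lower lists. All of these arrays come from one series.

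**Figure D4:**
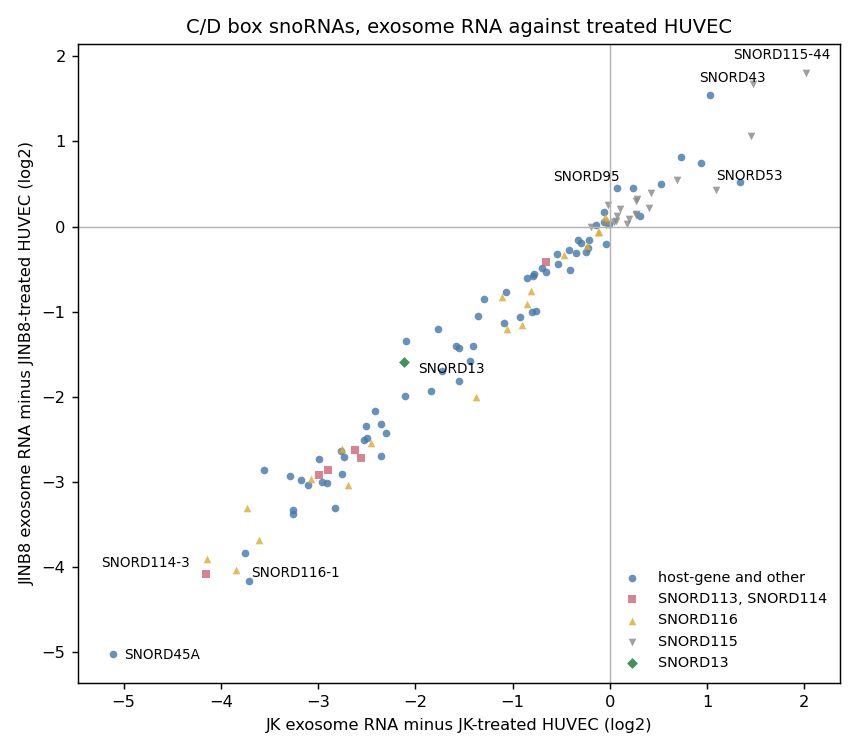
Log2 difference between exosome RNA and treated HUVEC, as deposited, for JK (x axis) and JINB8 (y axis), with 1 point for each C/D box snoRNA. Points run from SNORD45A at -5.11 and -5.02 to SNORD115-44 at 2.02 and 1.80.

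The chromosome 14 cluster was lower as a whole in exosome RNA, with 6 of 6 members called lower in both comparisons as deposited and 5 of 6 under all 3 scalings. SNORD114-3 had 7.66, 7.33 and 6.79 in JK-treated HUVEC and 3.19, 2.78 and 3.35 in JK exosome RNA, a gap far above the spread of either group. Its log2 difference was -4.15 ± 0.19 (SE, limma adjusted p = 2.06e-12), and -4.08 ± 0.19 for JINB8. In each exosome group 5 of the 6 cluster members, SNORD114-3 among them, lay in the dimmest 5% on every array. With no detection calls such signals were not shown to be above background, so the sizes of these differences are uncertain. SNORD116 had 16 of 20 lower and 0 higher in both comparisons, 14 of 20 under all 3 scalings. Values for SNORD116-14 were -4.14 ± 0.14 and -3.91 ± 0.14, and for SNORD116-1 they were -3.84 ± 0.10 and -4.04 ± 0.10. SNORD116-24 was at -3.73 ± 0.12 in the JK comparison. Of the SNORD116 copies 14 of 20 lay in the dimmest 5% on every array of each exosome group, with the same limit on their sizes. SNORD116-1 and SNORD116-24 were among them.

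Calls for SNORD115 ran the other way as deposited, with 12 of 20 higher for JK and 11 for JINB8, and 0 lower. By rank the family stayed at the bottom of the arrays. Its median percent rank was 99.62 in JK-treated HUVEC and 99.45 in JK exosome RNA, and 99.73 and 99.75 for JINB8. In each exosome group 15 of 20 lay in the dimmest 5% on every array. Under all 3 scalings 6 were called higher for JK and 4 for JINB8. After quantile normalization 6 were higher and 1 lower for JK and 4 and 0 for JINB8, and after median centring all 20 were higher in both. SNORD115-44 had 2.65, 2.80 and 2.77 in JK-treated HUVEC and 4.995, 4.70 and 4.58 in JK exosome RNA, with no overlap. Its log2 difference was 2.02 ± 0.10 (limma adjusted p = 6.81e-12) for JK and 1.80 ± 0.10 for JINB8. SNORD115-24 was at 1.47 ± 0.10 and 1.68 ± 0.10, and SNORD115-25 at 1.45 ± 0.17 and 1.07 ± 0.17. SNORD115-48 was higher by 1.09 ± 0.13 for JK. In JK-treated HUVEC these 4 copies lay in the dimmest 5% of all 3 arrays, so their HUVEC signals were not shown to be above background and the sizes of these differences are uncertain. In exosome RNA SNORD115-44 ranked 10646 to 12771 for JK, still in the dimmer part of the array.

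Of the 68 host-gene snoRNAs 54 were lower and 6 higher in JK exosome RNA, and 52 and 7 in JINB8 exosome RNA, with medians of -1.32 and -1.10. SNORD45A, a small subunit rRNA guide from RABGGTB, had the lowest value. Its signals were 9.56, 9.68 and 9.27 in JK-treated HUVEC and 4.45, 4.48 and 4.26 in JK exosome RNA, and 9.40, 9.91 and 9.59 against 4.29, 4.81 and 4.74 for JINB8. The log2 differences were -5.11 ± 0.15 (SE, limma adjusted p = 4.13e-15) and -5.02 ± 0.15. SNORD44 was at -3.76 ± 0.19 and -3.84 ± 0.19, and all 7 GAS5 snoRNAs were lower in the JK comparison. In JK exosome RNA 4 of the 7 lay in the dimmest 5% on every array. SNORD44 lay there on 2 of 3 JK and 1 of 3 JINB8 exosome arrays, so the sizes of these differences are uncertain. SNORD41 was at -3.71 ± 0.13 and -4.16 ± 0.13.

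The snoRNAs that were higher included 2 of the 3 measured snoRNAs of RPL3. SNORD43 had 6.93, 7.04 and 6.69 in JK-treated HUVEC and 7.98, 7.93 and 7.85 in JK exosome RNA, and 6.59, 6.36 and 6.58 against 7.98, 7.88 and 8.32 for JINB8. The groups did not overlap, and the log2 differences were 1.03 ± 0.12 (SE, limma adjusted p = 2.61e-07) and 1.55 ± 0.12. SNORD83B was at 0.73 ± 0.09 and 0.82 ± 0.09, while the RPL3 signal was lower by deposited value, at -4.47 ± 0.13 and -3.40 ± 0.13. By rank RPL3 stayed among the brightest genes. Its percent rank was 0.37 in JK-treated HUVEC and 3.22 in JK exosome RNA, and 0.56 and 0.84 for JINB8. SNORD53 was at 0.94 ± 0.09 and 0.74 ± 0.09, while its host WDR43 was at -3.58 and -3.60. The percent rank of WDR43 went from 14.5 to 72.7 for JK and from 12.6 to 67.5 for JINB8. SNORD43, SNORD83B and SNORD53 were higher under all 3 scalings. The other RPL3 snoRNA, SNORD83A, was lower as deposited, at -0.66 ± 0.09 and -0.53 ± 0.09, and at -0.21 and -0.15 after median centring, where the JINB8 value did not pass (limma adjusted p = 0.14). SNORD13P1 was at 1.34 ± 0.14 and 0.52 ± 0.14, with its HUVEC signals in the dimmest 5% of the arrays.

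SNORD95 and SNORD46, whose ranks were among the highest in exosome RNA, differed less by deposited value. SNORD95 was at 0.24 ± 0.13 for JK (adjusted p = 0.10) and 0.45 ± 0.13 for JINB8 (limma adjusted p = 0.0045), and 2.85 and 2.87 after quantile normalization. SNORD46 was at 0.07 ± 0.12 (adjusted p = 0.57) and 0.45 ± 0.12 (limma adjusted p = 0.0017), and 2.63 and 2.78 after quantile normalization. The other snoRNA of RACK1, SNORD96A, was lower as deposited, at -0.85 ± 0.13 and -0.60 ± 0.13. It did not pass after quantile normalization, at -0.33 (limma adjusted p = 0.096) and -0.12 (adjusted p = 0.53), nor for JINB8 after median centring, at -0.21 (adjusted p = 0.12).

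Over the 35 pairs, 32 had both the snoRNA and its host called for JK, 27 in the same direction and 5 opposite, and for JINB8 30, 25 and 5. The opposite pairs were the same 5 snoRNAs in both comparisons: SNORD43, SNORD83B, SNORD53, SNORD13P1 and SNORD13P3. SNORD13P1 and SNORD13P3 are copies of SNORD13 and were paired with a gene by position only, so their pairs were not shown to be snoRNA and host. By deposited value 23 of the 25 hosts were lower and 2 higher, with medians of -3.18 and -2.70, and 13 of 14 assembly factors were lower. These pair and host directions hold for the deposited scale, and by rank some of the lower hosts went up. From JK-treated HUVEC to JK exosome RNA the percent rank of RPL23A went from 1.17 to 0.26 and of AMMECR1 from 32.7 to 9.5. For RABGGTB it went from 14.7 to 94.0 and for HSPA9 from 4.5 to 47.5. FBL was at -2.17 ± 0.07 and -1.64 ± 0.07 and NOP58 at -2.28 ± 0.09 and -2.09 ± 0.09 by deposited value. The median percent rank of FBL and NOP58 was 11.15 in JK-treated HUVEC and 17.61 in JK exosome RNA, and 12.52 and 15.08 for JINB8. SNORA genes had 15 higher and 33 lower of 61 for JK.

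**Figure D5:**
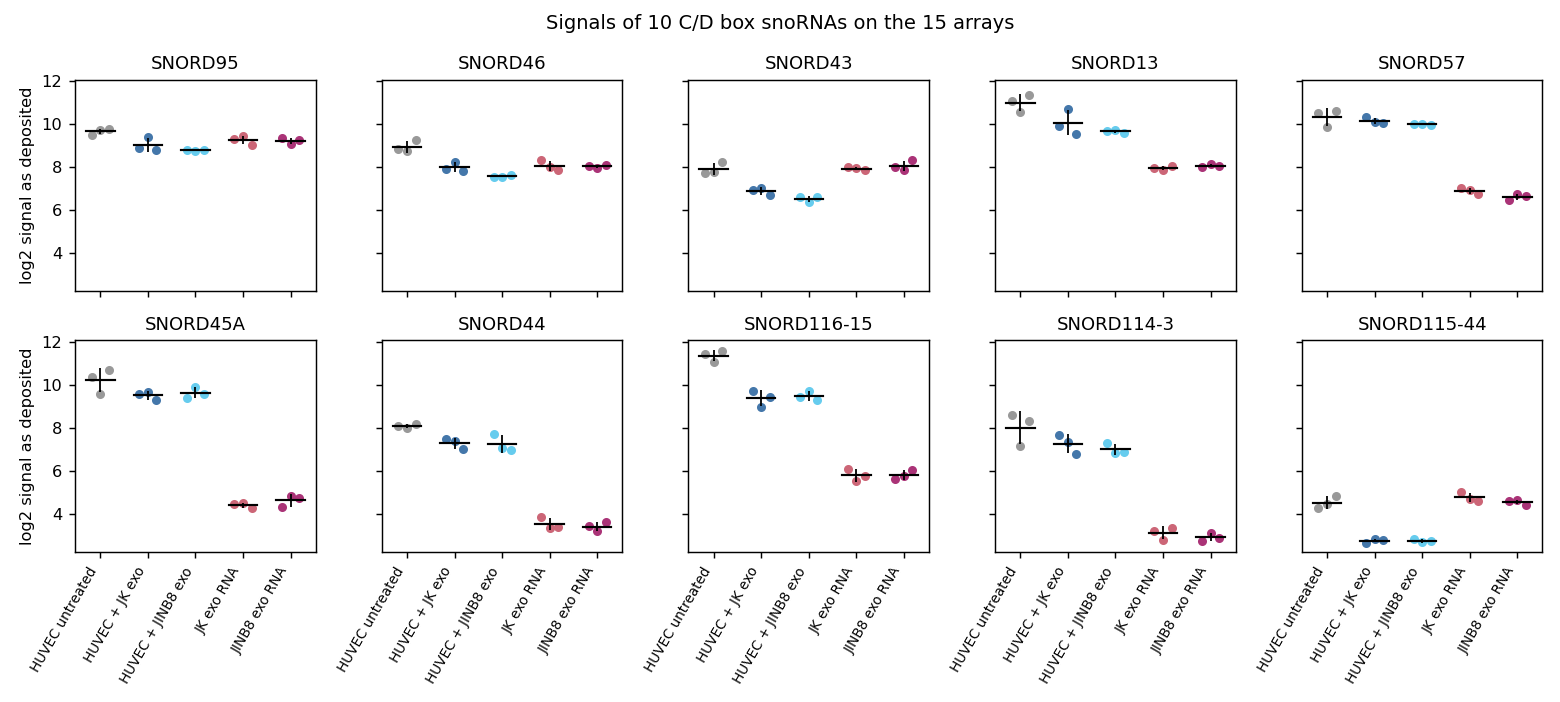
Deposited log2 signals of 10 C/D box snoRNAs on the 15 arrays, with points for arrays, horizontal lines for group means and vertical bars for the SD (n = 3). SNORD95, SNORD46 and SNORD43 keep a high signal in exosome RNA, SNORD45A, SNORD44, SNORD116-15 and SNORD114-3 are far lower there, and untreated HUVEC lie on a higher level as deposited.

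The JINB8-minus-JK difference was also compared between exosome RNA and treated HUVEC, in 1 interaction contrast over 12 arrays. Beside 0.787% of all genes called (0.684% higher and 0.103% lower), 1 member passed, and 16 had an unadjusted p under 0.05, beside 12% of all genes. The member was SNORD104, a large subunit rRNA guide in SNHG25. Its signals were 7.17, 7.13 and 6.99 with JK and 6.80, 6.48 and 6.45 with JINB8 exosomes in HUVEC, and 3.55, 3.39 and 3.69 in JK and 3.75, 3.75 and 3.65 in JINB8 exosome RNA. The contrast was -0.52 ± 0.19 in HUVEC and 0.17 ± 0.09 in exosome RNA, neither of which passed alone, and the 2 differed by 0.69 ± 0.14 (SE, limma adjusted p = 0.0357). The call was lost after quantile normalization (0.51, adjusted p = 0.10) and median centring (0.63, adjusted p = 0.066), with the replicate block (adjusted p = 0.064), and when any of 9 of the 12 arrays was left out. In exosome RNA SNORD104 was dim, at percent ranks of 90.2 to 94.8 for JK and 88.9 to 90.6 for JINB8. Its signal there was not shown to be above background, so a difference between the lines in exosome RNA could be missed. FBL differed by 0.53 ± 0.11 (limma adjusted p = 0.0294).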

How the data were processed

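Total RNA was labelled (300 ng per sample, per the labels) and hybridised to 15 arrays. By their range, the values deposited by the authors are log2 signals. Per the submitters' processing notes they came from Affymetrix Expression Console. Its version and normalization are not given in the sources read. All value columns matched a sample.

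Of 33297 probesets 19460 had 1 gene symbol in the platform annotation, and each gene took its brightest probeset by the mean of 15 arrays. Spanning genes came from RefSeq by position, without strand, and 113 members had one (all but SNORD13 and SNORD32B). limma 3.58.1 in R 4.3.3 (lmFit and eBayes, threshold 0.05) was fitted on all 18417 genes. Comparisons with untreated HUVEC used quantile normalization over 9 arrays, the others the deposited values. The spread was pooled over the 9 HUVEC arrays for comparisons within HUVEC and over the 6 exosome arrays for exosome RNA. For exosome RNA against cells and the interaction it was pooled over 12 arrays. The fits were tested on simulated data.

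Per comparison the text names the 6 highest and 6 lowest called members whose groups do not overlap, or else up to 3 a side with an unadjusted p under 0.05, the 8 members of highest and 4 of lowest mean rank, SNORD13, SNORD44, hosts of named members and the particle proteins. Further members are named as counts of a host or chosen after their values were seen (SNORD45B and SNORD45C among the RABGGTB snoRNAs, SNORD14E, SNORD37, SNORD83A, SNORD96A). Members and lists were chosen with earlier results of these data known.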

Additional observations from a re-analysis of the deposited data

Results flagged for a closer look

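SNORD104 was flagged because it was the 1 member called in the limma interaction test over 12 arrays. The test compared the JINB8-minus-JK difference between exosome RNA and treated HUVEC. A single member is a share close to the 0.787% called among all genes. The difference of the contrasts was 0.69 on the log2 scale (SE 0.14, limma adjusted p = 0.0357). The call was lost after quantile normalization (0.51, adjusted p = 0.10), median centring (0.63, adjusted p = 0.066) and with the replicate block (adjusted p = 0.064), and when any of 9 of the 12 arrays was left out. Lower signals with JINB8 were seen on 3 of 3 JINB8-treated HUVEC arrays against all JK-treated arrays. These values also entered the interaction test, and the difference within HUVEC did not pass alone. In exosome RNA the SNORD104 signal was dim (percent ranks 90.2 to 94.8 for JK and 88.9 to 90.6 for JINB8) and not shown to be above background.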

How the results depend on the processing

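Depth cannot be read from the arrays, and without detection calls the dim SNORD115 signals have no lower limit. In HUVEC against untreated HUVEC the values as deposited gave 0 members higher and 111 lower with JK exosomes, and 0 and 112 with JINB8 exosomes, the deposited level of the untreated arrays being higher. SNORD50B turned to -0.44 and -0.66 for JK and JINB8, SNORD94 to -0.39 and -0.58, and SNORD82 to -0.34 and -0.44. For JK SNORD41 turned to -0.12, SNORD50A to -0.45 and SNORD4A to -0.52, and for JINB8 SNORD116-23 to -0.46 and SNORD42A to -0.53. Median centring gave 82 higher and 3 lower with JINB8 exosomes, and turned SNORD115-44 to 0.011 (JK) and 0.053 (JINB8) and SNORD115-31 to 0.51 (JINB8). It gave 38 higher members in exosome RNA against treated HUVEC for JK and 38 for JINB8, and 0 in the interaction, as quantile normalization did (0). Without the 40% dimmest genes fewer members were tested (53 against untreated HUVEC and 34 for exosome RNA against cells). This left 30 higher and 5 lower with JK and 27 and 5 with JINB8 exosomes, beside 31.9% higher of all genes left in both and 25.5% and 26.6% lower. For exosome RNA against cells it left 3 higher and 27 lower for JK and 5 and 27 for JINB8 (79.4% lower in both), beside 68.1% and 67% of all genes left.

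Replicate numbers did not pair the samples: of 30 same-numbered pairs 1 correlated above 0.1. Between JK-treated and JINB8-treated HUVEC the same-numbered correlations were -0.204, -0.18 and -0.453. The highest with another number were 0.285, 0.328 and 0.308, so arrays may group across the 2 treatments in a way that the numbers do not give. With the replicate block the interaction called 0 members and JINB8 against JK exosome RNA called 1 lower. The other counts under the block were within 1.5 times. Leaving out 1 array gave 0 to 2 higher and 0 to 1 lower in the interaction, and 0 to 2 lower in JINB8 against JK exosome RNA, the 2 arising without JINB8 replicate 1. It gave 46 to 58 higher with JK and 39 to 50 with JINB8 exosomes against untreated HUVEC. A robust fit with a variance trend, or the 6 compared arrays alone, kept every count of members within 1.5 times. Averaging the probesets of each gene did so too, but each member has 1 probeset, so the values of the members could not change.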
